A study of Mus musculus with 12 samples.

Results

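The genes described here are 10 members of the cytosolic heat shock response: the inducible HSP70 genes Hspa1a and Hspa1b, the constitutive HSP70 gene Hspa8, the HSP110 genes Hspa4l and Hsph1, the J protein gene Dnajb1, the HSP90 gene Hsp90aa1, the HSP90 cochaperone gene Chordc1, the small heat shock protein gene Hspb1 and the regulator Hsf1. They were chosen by name from 23163 genes in the count table, and all 10 passed the filter on low counts in every comparison. Hspa1a and Hspa1b are near-identical copies, so the sum of their counts was also tested as 1 gene.

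The tissues were brown fat (brown adipose tissue, BAT) and the fat under the skin (subcutaneous white adipose tissue, sWAT), and their RNA was sequenced in male C57Bl/6 mice aged 8 to 12 weeks. Of 20 mice, 10 spent 72 hours at 30 °C (thermoneutral, where a mouse needs no extra heat production) and 10 spent 72 hours at 4 °C (cold). All groups share strain and sex, and no group carries an engineered allele or received a drug per the labels. There were 12 libraries in 4 groups of 3, BAT thermoneutral, BAT cold, sWAT thermoneutral and sWAT cold. Whether a library is 1 animal or a pool, and whether BAT and sWAT libraries come from the same animals, is not given in the sources used here, so p-values measure the spread between these libraries, which may be technical.

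Cells meet misfolded protein with ATP-driven chaperones. HSP70 proteins bind exposed stretches of a client, J proteins such as Dnajb1 deliver clients and start ATP hydrolysis, and HSP110 proteins exchange the nucleotide so that the client is released; HSP90 acts later on near-native clients, and small heat shock proteins hold unfolded ones. The transcription factor Hsf1 drives the inducible genes through arrays of the 3-base unit GAA and its reverse complement TTC, known as heat shock elements, while Hspa8 is made at high level in most cells without stress. In brown fat, where heat is released by mitochondria that oxidise fat, adipocytes raise protein synthesis and mitochondrial content during cold exposure.

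Levels below are counts per 1000000 counts of a library (CPM), scaled for library composition and given for libraries 1, 2 and 3 of a group in that order. Changes are log2 fold changes ± standard error from edgeR's quasi-likelihood test with 3 libraries a group, and adjusted p is by Benjamini-Hochberg across every gene in the fit, called at 0.05. Libraries held 27117934 to 56243016 counts. The sWAT thermoneutral libraries stood apart: mitochondrially encoded genes took 0.181% to 0.307% of their counts, against 17.6% to 53.8% in the other 9 libraries, and the slope of log2 CPM on transcript GC content was 0.80 to 1.31 per 10 percentage points, against −0.64 to 0.29. A library batch of those 3 samples and the temperature in sWAT cannot be told apart. The BAT libraries numbered 3 also differed from libraries 1 and 2 of their groups. Their mitochondrial share was 17.6% at thermoneutrality (34.8% and 37.7% in libraries 1 and 2) and 53.8% in cold (24.4% and 20.0%). Their GC slopes were −0.38 (0.01 and −0.10) and −0.64 (0.21 and 0.29). Results without both of them rest on libraries 1 and 2 of each BAT group. In whole tissue, fewer cells of a type and less RNA per cell cannot be told apart either.

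The inducible HSP70 pair showed the widest range of the 10 genes. Hspa1a (chr17:34969190-34972156, minus strand of GRCm38) and Hspa1b (chr17:34956436-34959238, minus strand) encode the HSP70 that is made in bulk after heat or proteotoxic stress. Their promoter windows in RefSeq on GRCm38.p6, 250 bases before the start site and 50 bases from it on, were 98.7% identical, with 4 differences in 300 bases. The stretch from 210 to 81 bases before the start is printed because it holds the heat shock element match of each copy, in capitals, and shows how alike the copies are; Hspa1a lies at chr17:34972237-34972366 and Hspa1b at chr17:34959319-34959448, both on the minus strand.
Hspa1a: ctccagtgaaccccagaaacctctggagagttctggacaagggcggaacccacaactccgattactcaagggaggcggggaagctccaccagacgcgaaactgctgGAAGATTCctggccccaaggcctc
Hspa1b: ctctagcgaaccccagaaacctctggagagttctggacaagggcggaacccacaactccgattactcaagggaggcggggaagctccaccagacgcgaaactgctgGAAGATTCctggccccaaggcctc

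The search took 2 facing units, GAA then TTC or TTC then GAA, with 2 bases between them, on both strands. Overlapping matches were counted. Only exact units at this spacing were taken, and imperfect or gapped units were not searched. A window without a match may therefore still hold a heat shock element, and the number of matches may be too low. Such a match stood in 4946 of 32851 promoter windows (15.1%), so 1 match is common, while 3 alternating units in a row stood in 198 (0.603%). Of the 10 genes, 7 had a promoter window. The copies of Hspa1 each had 1 match, at −104 to −97 from the start. Within the transcripts, 47.1% of all 100-base windows of Hspa1a were found whole in Hspa1b. Hspa1a took 36.0% to 63.0% of the pair's counts in the 12 libraries, and its exons also overlap 564 bases of the gene Gm20481 on the other strand.

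In BAT, Hspa1a fell in the cold. Its level was 203, 129.8 and 43.0 CPM at thermoneutrality and 6.99, 10.6 and 1.14 CPM in cold. Hspa1b was at 224, 142.5 and 38.8 CPM at thermoneutrality and at 6.22, 9.96 and 0.672 CPM in cold. The lowest thermoneutral library of either gene was above the highest cold library, and library 3 was the lowest within each temperature.

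Hspa1a fell by 4.27 ± 0.84 (adjusted p = 0.016), Hspa1b fell by 4.52 ± 0.96 (adjusted p = 0.0204) and the sum fell by 4.39 ± 0.91 (adjusted p = 0.0188), a 21-fold decrease. The sum rested on 11793, 9640 and 3491 counts at thermoneutrality and on 295, 682 and 54 counts in cold. No overlap in this direction was shown by 19.7% of all genes tested. The sum no longer passed when BAT cold library 1 was left out (−4.46, adjusted p = 0.0631), and likewise without thermoneutral library 1 (−3.88, adjusted p = 0.0684) and without thermoneutral library 2 (−4.33, adjusted p = 0.0671), in a range of 1.12e-07 to 0.0684 over 17 alternatives; Hspa1a and Hspa1b lost their calls under the same omissions, at adjusted p of 0.0544 to 0.061 and 0.0672 to 0.073, and Hspa1b also without a filter on low counts (0.0544). With a GC offset for each library the sum fell by 4.54 (adjusted p = 0.00414).

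In sWAT the pair was low at both temperatures. The sum was 3.14, 6.07 and 5.52 CPM at thermoneutrality and 0.983, 10.99 and 14.1 CPM in cold, with cold library 1 below and cold libraries 2 and 3 above all thermoneutral libraries. Its log2 fold change was 0.81 ± 0.74 (adjusted p = 0.388), with 1.19 ± 0.74 for Hspa1a (adjusted p = 0.21) and 0.44 ± 0.76 for Hspa1b (adjusted p = 0.659). Cold library 1 and the GC offset both moved these values. Without cold library 1 the sum had 1.35 (adjusted p = 0.00663, in a range of 0.00663 to 0.973 over 16 alternatives), Hspa1a 1.74 (adjusted p = 0.00206) and Hspa1b 0.98 (adjusted p = 0.048). With a GC offset the sum had 1.65 (adjusted p = 0.0993), Hspa1a 2.05 (adjusted p = 0.0511) and Hspa1b 1.26 (adjusted p = 0.201). Hspa1b had −0.32 with limma-voom and −0.09 with a replicate block.

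The responses of the pair differed between the tissues, by 5.27 ± 1.28 for the sum (sWAT minus BAT, adjusted p = 0.011), 5.53 ± 1.23 for Hspa1a (adjusted p = 0.0071) and 5.03 ± 1.32 for Hspa1b (adjusted p = 0.0157; 0.059 without a filter on low counts). At thermoneutrality the sum was 5.73 ± 1.04 higher in BAT than in sWAT (adjusted p = 0.000458), 260.5 ± 173 CPM against 4.91 ± 1.56 CPM (SD, n = 3). In cold the difference between BAT and sWAT was 0.45 ± 0.86 (adjusted p = 0.8). The BAT thermoneutral group was thus the group that stood apart, with 81.8 CPM in its lowest library against 20.5 CPM in the highest of the other 9.

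**Figure D1:**
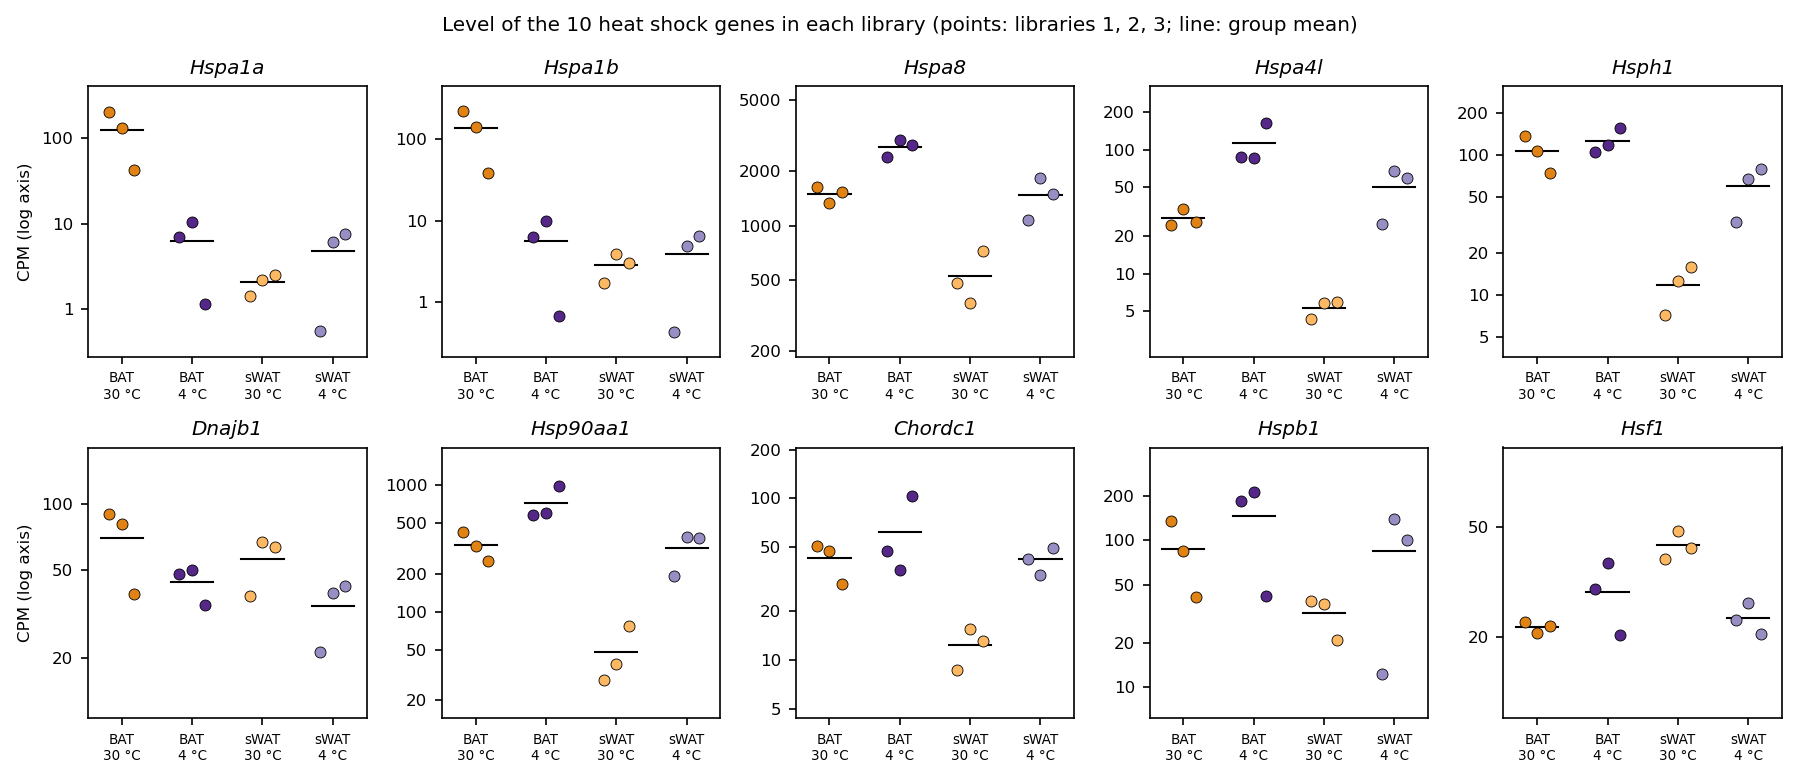
Level of each of the 10 genes in CPM (log axis) in the 12 libraries, by tissue and temperature; points are libraries 1, 2 and 3 from left to right and lines are group means. Hspa1a and Hspa1b were high in the 3 BAT libraries at 30 °C, Hspa4l was higher at 4 °C in both tissues without overlap, and Hsf1 was highest in sWAT at 30 °C.

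Hspa8 (chr9:40800984-40810087, plus strand), the constitutive HSP70 that folds new proteins and uncoats clathrin vesicles, had a higher mean in cold than at thermoneutrality in both tissues. In BAT it had 1648, 1332 and 1536 CPM at thermoneutrality and 2406, 2979 and 2820 CPM in cold, with no overlap. The log2 fold change was 0.92 ± 0.27, with adjusted p = 0.0618, just over the threshold; it passed with DESeq2 (0.94, adjusted p = 0.00308), with a GC offset (1.00, adjusted p = 0.0269) and without both BAT libraries numbered 3 (0.92, adjusted p = 0.00731), in a range of 0.00308 to 0.244. No overlap in this direction was shown by 16.0% of all genes.

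In sWAT, Hspa8 rose by 1.47 ± 0.39 (adjusted p = 0.0137), from 480.0, 373 and 725 CPM to 1073, 1848 and 1493 CPM, again with no overlap, as for 30.1% of all genes in this direction. This call was lost with a GC offset (1.05, adjusted p = 0.0582) and without sWAT thermoneutral library 1 (1.44, adjusted p = 0.0514) or 2 (1.26, adjusted p = 0.0667), in a range of 0.000175 to 0.141. The responses of the tissues differed by 0.62 ± 0.48 (adjusted p = 0.352). Exons of 3 small nucleolar RNA genes (Snord14c, Snord14d and Snord14e) lie within Hspa8 on the same strand.

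A ratio within a library does not depend on scaling between libraries. Exon length was the union of all annotated exons of a gene, 4301 bases for Hspa8, 2967 for Hspa1a and 2803 for Hspa1b. A shorter length for Hspa8 would lower every share below by the same factor, so only their comparison between libraries is free of this choice. Per base of exon, the Hspa1 pair reached 38.7%, 30.6% and 7.93% of Hspa8 in BAT at thermoneutrality. In BAT cold it was at 0.818%, 1.03% and 0.0953%. In sWAT the shares were 0.978%, 2.44% and 1.14% at thermoneutrality and 0.136%, 0.885% and 1.40% in cold. Every BAT thermoneutral library was above all 9 others, and sWAT at both temperatures overlapped BAT cold. The library with the lowest share in BAT thermoneutral, BAT cold and sWAT cold was also the one with the lowest GC slope of its group (−0.38, −0.64 and −0.34). In sWAT thermoneutral the library with the lowest share, library 1, had the highest GC slope of its group (1.31, against 1.06 and 0.80). The part of GC content in this spread was not tested.

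**Figure D2:**
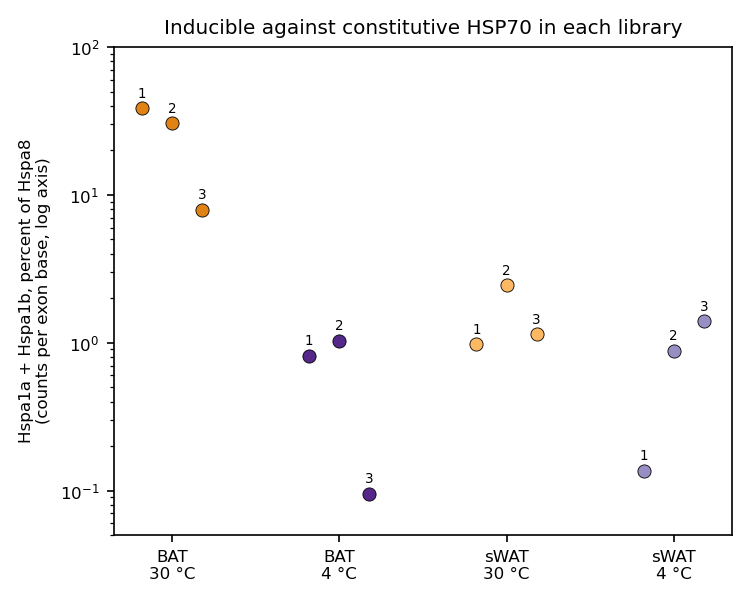
Counts of Hspa1a plus Hspa1b per exon base as a percentage of Hspa8 (log axis) in each library, numbered 1 to 3. Exon length is the union of all annotated exons, so the height of the percentages depends on that choice. The 3 BAT libraries at 30 °C lie at 7.93% to 38.7%, and the other 9 at or below 2.44%.

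Hspa4l rose in both tissues. Hspa4l (chr3:40744495-40796103, plus strand), a nucleotide exchange factor for HSP70 related to Hspa4, had 24.9, 33.1 and 26.2 CPM in BAT at thermoneutrality and 87.4, 85.9 and 162 CPM in cold. It rose by 2.05 ± 0.33 (adjusted p = 0.0086), and kept its call under all 17 alternatives (1.63 to 2.22, adjusted p 5.48e-07 to 0.0486). In sWAT it had 4.30, 5.87 and 5.90 CPM at thermoneutrality and 24.9, 67.1 and 59.2 CPM in cold. There it rose by 3.22 ± 0.39 (adjusted p = 0.000507), and by 1.67 to 3.55 with adjusted p of at most 0.0328 under all 16 alternatives.

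The groups of Hspa4l did not overlap in either tissue, as for 16.0% of all genes in BAT and 30.1% in sWAT in this direction. The level in sWAT cold library 1 reached that of the lowest BAT thermoneutral library. The response of Hspa4l differed between tissues by 1.24 ± 0.51 (adjusted p = 0.0895). This difference passed without BAT cold library 3 (1.41, adjusted p = 0.0328) or sWAT cold library 1 (1.33, adjusted p = 0.0391) and was −0.32 with a GC offset. Within libraries, Hspa4l had 34.0%, 38.7% and 19.6% of the counts of Hspa4 in BAT at thermoneutrality and 48.3%, 44.0% and 57.1% in cold. In sWAT it went from 5.42%, 4.91% and 5.86% to 19.1%, 47.6% and 38.2%. Hspa4l therefore moved further than its paralog within each library set, with no overlap of the groups in this ratio. Its promoter window (chr3:40745363-40745662), which lies inside the gene as annotated here, held no exact heat shock element match.

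Hsph1 (chr5:149614287-149636376, minus strand), the heat-inducible HSP110, was printed in 2 pieces, because its matches lie on both sides of the start site. The first, chr5:149636352-149636396, has 2 facing units before the RefSeq start, and the second, chr5:149636287-149636303, has 3 alternating units after it.
Hsph1 upstream: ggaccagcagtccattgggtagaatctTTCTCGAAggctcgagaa
Hsph1 downstream: agaTTCTGGAAAGTTCt

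Hsph1 differed between the tissues. In BAT it had 138, 107.0 and 74.6 CPM at thermoneutrality and 105.0, 117 and 156 CPM in cold, which overlap (0.31 ± 0.31, adjusted p = 0.542; −0.08 without both BAT libraries numbered 3). In sWAT it rose from 7.16, 12.5 and 15.7 CPM to 33.3, 67.4 and 79.1 CPM, by 2.33 ± 0.40 (adjusted p = 0.00201; 0.0122 at most over 16 alternatives). The difference of the responses was 2.10 ± 0.53 (adjusted p = 0.0128), and without BAT cold library 1 it was 1.75 (adjusted p = 0.0502, in a range of 0.00335 to 0.0502). At thermoneutrality Hsph1 was 3.17 ± 0.40 higher in BAT than in sWAT (adjusted p = 3.09e-05). All BAT libraries were above all sWAT libraries, as for 32.3% of all genes in this direction.

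Dnajb1 (chr8:83608193-83612653, plus strand), the J protein that partners HSP70 in the heat response, passed no test. In BAT it had 90.4, 80.9 and 39.0 CPM at thermoneutrality and 48.4, 50.2 and 34.8 CPM in cold. Thermoneutral library 3 fell among the cold libraries, and the log2 fold change was −0.60 ± 0.35 (adjusted p = 0.288). Without both BAT libraries numbered 3 it was −0.74 (adjusted p = 0.00577, in a range of 0.00577 to 0.547). In sWAT it had 38.2, 67.4 and 64.0 CPM at thermoneutrality and 21.3, 39.4 and 42.4 CPM in cold, with −0.73 ± 0.33 (adjusted p = 0.0934). The response in sWAT minus that in BAT was −0.06 ± 0.51 (adjusted p = 0.944). Neither of its promoter windows held an exact match, and imperfect units were not searched.

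Hsp90aa1 (chr12:110690605-110702728, minus strand) encodes the inducible HSP90, which matures kinases and steroid receptors. In BAT it had 424, 333.0 and 253 CPM at thermoneutrality and 581, 607 and 989 CPM in cold. The groups did not overlap, as for 16.0% of all genes in this direction. The log2 fold change of Hsp90aa1 was 1.17 ± 0.33, and adjusted p = 0.0542 missed the threshold. It passed with RLE scaling (1.19, adjusted p = 0.0497), without a filter (0.0475), with DESeq2 (1.19, adjusted p = 0.006), with a GC offset (1.23, adjusted p = 0.0202) and without both libraries numbered 3 (0.71, adjusted p = 0.0169), in a range of 0.006 to 0.150. In sWAT it rose by 2.72 ± 0.46 (adjusted p = 0.00189), from 28.9, 38.6 and 76.7 CPM to 189.8, 388 and 382 CPM, and it kept this call under all 16 alternatives.

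The difference of the Hsp90aa1 responses was 1.63 ± 0.58 (adjusted p = 0.0565, in a range of 0.017 to 0.341). It passed with the library number as a block (1.78, adjusted p = 0.0383), with DESeq2 (0.045) and limma-voom (0.0442), and without BAT cold library 3 (0.0366), sWAT cold library 1 (0.0469) or sWAT thermoneutral library 3 (0.017). Its constitutive paralog Hsp90ab1 rose by 1.10 ± 0.29 in BAT (adjusted p = 0.0448, in a range of 0.00196 to 0.181, kept under 8 of 17 alternatives) and by 1.32 ± 0.37 in sWAT (adjusted p = 0.0178). In BAT the counts of Hsp90aa1 divided by those of Hsp90ab1 were 0.394, 0.294 and 0.173 at thermoneutrality and 0.283, 0.227 and 0.348 in cold, which overlap. In sWAT the ratio went from 0.0526, 0.133 and 0.197 to 0.251, 0.310 and 0.351, without overlap.

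Chordc1 (chr9:18292125-18317442, plus strand), a zinc-binding HSP90 cochaperone, held the longest array of units among the 7 genes with a window, 5 matches in all. Of all windows, 0.256% had 3 or more. The printed stretch, chr9:18292260-18292288, spans the RefSeq start and carries 5 alternating units in capitals.
Chordc1: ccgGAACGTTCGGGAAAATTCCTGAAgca

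In BAT, Chordc1 had 50.9, 47.4 and 29.7 CPM at thermoneutrality and 47.3, 35.8 and 103 CPM in cold. Cold library 3 alone was above the thermoneutral range; the log2 fold change was 0.60 ± 0.42 (adjusted p = 0.374), and −0.19 without both libraries numbered 3. With a GC offset it was 0.71 (adjusted p = 0.0358, in a range of 0.0358 to 0.966). In sWAT it rose from 8.70, 15.5 and 13.1 CPM to 42.4, 33.7 and 49.6 CPM, by 1.76 ± 0.29 (adjusted p = 0.00173). This rise was not there after a GC offset (−0.28, adjusted p = 0.362); with a GC content of 35.7% Chordc1 was the lowest of the 10 genes. The difference between the tissues was 1.21 ± 0.53 (adjusted p = 0.111), and was 1.63 (adjusted p = 0.0128) without BAT cold library 3 and −0.98 (adjusted p = 0.0319) with the GC offset.

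Hspb1 (chr5:135887919-135889563, plus strand), the small heat shock protein HSP25 of mouse, passed in neither tissue. Its promoter had 2 separate matches, shown in capitals in chr5:135887779-135887838, where 1.96% of all windows had 2 or more.
Hspb1: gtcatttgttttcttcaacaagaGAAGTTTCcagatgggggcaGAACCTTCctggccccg

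In BAT it had 136, 84.6 and 40.9 CPM at thermoneutrality and 185, 215 and 41.8 CPM in cold. Library 3 was the lowest at both temperatures, and the log2 fold change was 0.82 ± 0.61 (adjusted p = 0.403); it was 0.92 (adjusted p = 0.00826, in a range of 0.00826 to 0.747) without both libraries numbered 3. In sWAT it had 38.7, 36.7 and 21.0 CPM at thermoneutrality and 12.3, 140.0 and 100.5 CPM in cold, with 1.37 ± 0.69 (adjusted p = 0.127). Cold library 1 lay below all thermoneutral libraries: without it the change was 1.89 (adjusted p = 0.000692), and with a GC offset it was 2.44 (adjusted p = 0.0116), in a range of 0.000692 to 0.398. Hspb1 has the highest GC content of the 10 genes, 61.7%.

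Hsf1 (chr15:76477422-76501913, plus strand), the transcription factor of the response, is held inactive by chaperones and is regulated largely after translation. In BAT it had 22.5, 20.7 and 21.9 CPM at thermoneutrality and 29.8, 36.8 and 20.3 CPM in cold (0.48 ± 0.28, adjusted p = 0.289; 0.69 with adjusted p = 0.00973 without both libraries numbered 3, in a range of 0.00973 to 0.697). In sWAT it fell by 0.88 ± 0.22 (adjusted p = 0.0105), from 38.3, 48.3 and 41.8 CPM to 22.9, 26.4 and 20.5 CPM, with no overlap, as for 30.5% of all genes in this direction. The call was lost with a GC offset (−0.42, adjusted p = 0.122) and without sWAT cold library 3 (−0.78, adjusted p = 0.0624), in a range of 0.00339 to 0.185.

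The responses of Hsf1 differed by −1.30 ± 0.35 (sWAT minus BAT, adjusted p = 0.017). This difference was −0.83 (adjusted p = 0.0535) with a GC offset and −1.21 (adjusted p = 0.0509) without sWAT cold library 3, in a range of 0.000511 to 0.0758. The mRNA of Hsf1 had its highest mean in sWAT thermoneutral. The other genes except Dnajb1 had their lowest means in that group. Dnajb1 was at 56.6 CPM there and had its lowest mean in sWAT cold, 34.3 CPM. That group also stood apart in mitochondrial share and GC slope, and with a GC offset the sWAT changes of Hsf1 and Chordc1 were not called. A relation between Hsf1 and the other genes was not tested.

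Counted over the 10 genes, cold in BAT gave 1 rise (Hspa4l), 2 falls (Hspa1a and Hspa1b) and 7 not called. Hspa1a and Hspa1b are near-identical copies whose shared reads cannot be told apart. Their 2 calls are therefore not independent, here and in every count over the 10 genes. Of 14612 genes, 12.2% were called in either direction (6.82% higher and 5.34% lower). The median log2 fold change of the 10 was 0.54 beside −0.04 over all genes; upper quartile scaling moved the latter to −0.20 and the share of higher calls from 56.0% to 41.5%, without changing a call of the 10. With the library number as a block, 2799 genes were called in place of 1777 (1493 higher and 1306 lower), and the 10 genes again gave 1 rise and 2 falls. Without both BAT libraries numbered 3, 8 of the 10 passed (5 higher and 3 lower), while the genes called over the table went up to 6509.

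In sWAT cold gave 5 rises, 1 fall and 4 not called. There 49.2% of 15731 genes were called (25.1% higher and 24.1% lower), so 6 of 10 is close to the share over the table. The median of the 10 was 1.42 beside 0.00 over all genes. In the difference of the responses 4 of the 10 passed, 3 higher in sWAT (Hspa1a, Hspa1b and Hsph1) and Hsf1 lower, with 25.1% of 16365 genes called (17.3% higher and 7.85% lower). The median difference over all genes was 0.12, and −0.03 with RLE scaling, which also took the share of higher calls from 68.7% to 58.4%; the 4 calls kept their direction with each scaling.

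**Figure D3:**
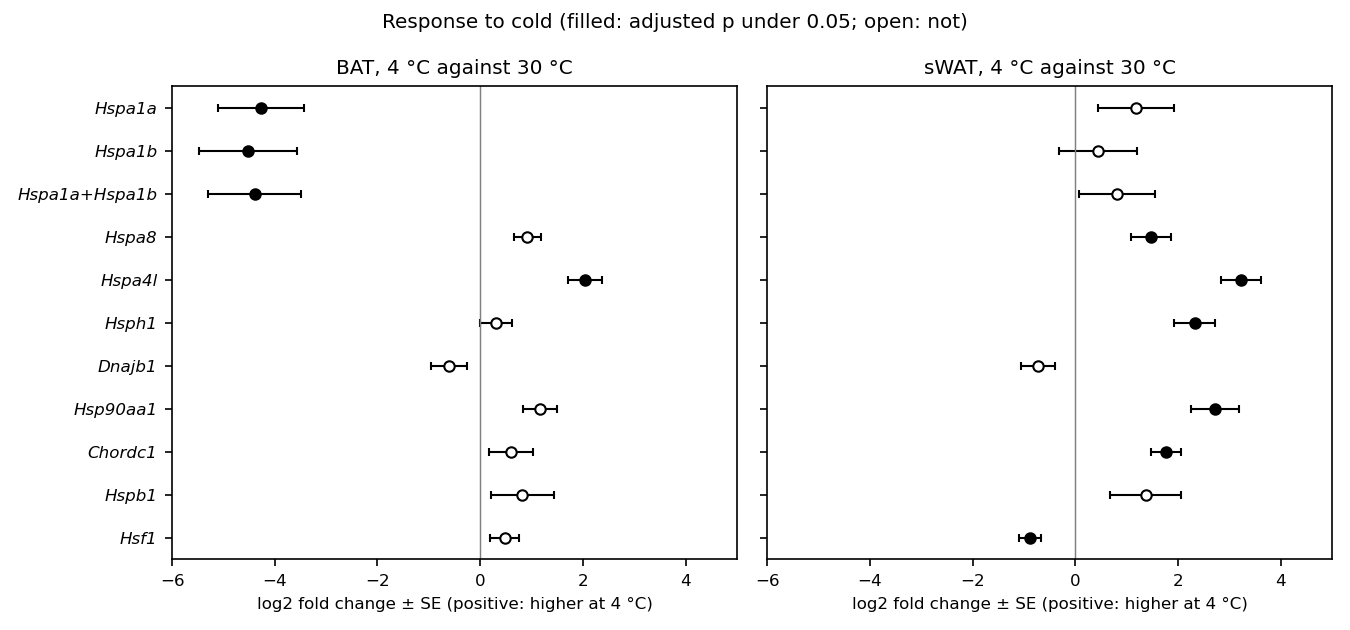
Log2 fold change of cold against thermoneutral with its standard error (bars) for each gene and for the summed Hspa1 pair, in BAT (left) and sWAT (right), 3 libraries a group; filled points passed adjusted p 0.05. Hspa1a, Hspa1b and their sum lie at −4.27, −4.52 and −4.39 in BAT and at 1.19, 0.44 and 0.81 in sWAT, while Hspa4l passed on the higher side in both.

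GC content and the sWAT change moved together. After a GC offset for each library, fitted by a smooth curve of log2 count on transcript GC content, the sWAT changes of Hspa4l went from 3.22 to 1.87, of Hsp90aa1 from 2.72 to 2.03 and of Hsph1 from 2.33 to 2.11, and those 3 kept their calls. Chordc1, Hspa8 and Hsf1 lost theirs, and Hspb1 gained one. In BAT the widest moves among the 10 genes were those of Hspa1b, from −4.52 to −4.66, and Hspb1, from 0.82 to 0.68.

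**Figure D4:**
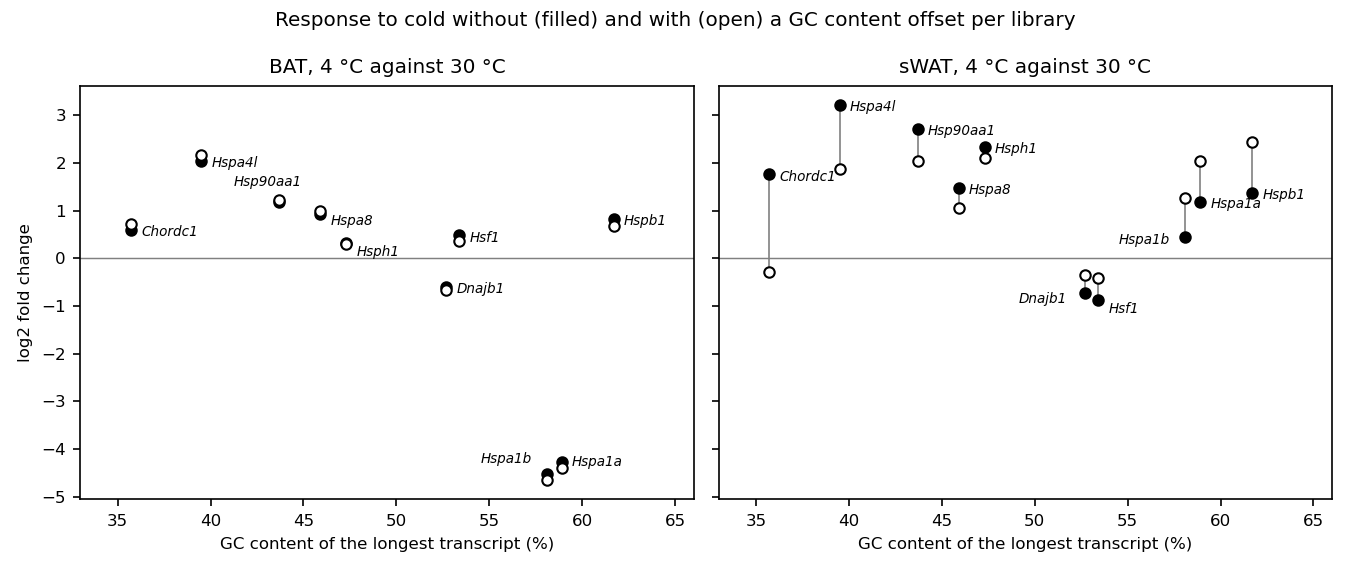
Log2 fold change of cold against thermoneutral for each gene against the GC content of its longest transcript (percent), without (filled) and with (open) a GC offset for each library, joined by a line. In sWAT genes of low GC content moved down, Chordc1 from 1.76 to −0.28, and genes of high GC content moved up, Hspb1 from 1.37 to 2.44; in BAT the points nearly coincide.

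Levels of different genes were set side by side per kilobase of exon. The length was the union of all annotated exons, from 1031 bases for Hspb1 to 11792 for Hspa4l. A single transcript can be shorter than this union, so the order of the genes depends on that choice. In BAT at thermoneutrality Hspa8 led with 350.0 ± 37.3 CPM per kb (SD, n = 3), followed by the Hspa1 pair (90.3 ± 60.0), Hsp90aa1 (85.7 ± 21.8) and Hspb1 (84.6 ± 46.4), whose ranges overlap. Dnajb1 (21.9 ± 8.54), Hsph1 (14.7 ± 4.37), Chordc1 (5.69 ± 1.52), Hsf1 (3.05 ± 0.134) and Hspa4l (2.38 ± 0.376) followed. In BAT cold the order was Hspa8 (636 ± 68.8), Hsp90aa1 (185 ± 58.0), Hspb1 (143 ± 89.7), Hsph1 (17.4 ± 3.70), Dnajb1 (13.9 ± 2.64), Hspa4l (9.49 ± 3.70), Chordc1 (8.28 ± 4.81), the Hspa1 pair (4.11 ± 3.27) and Hsf1 (4.08 ± 1.17). The pair, at 0.629 to 7.12 CPM per kb, then overlapped Hsf1 and Chordc1 and lay just below the lowest value of Hspa4l, 7.29.

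In sWAT at thermoneutrality Hspa8 had 122 ± 41.9 CPM per kb, Hspb1 31.2 ± 9.39, Dnajb1 17.6 ± 4.98 and Hsp90aa1 12.2 ± 6.42. Hsf1 had 6.03 ± 0.718, above the Hspa1 pair (1.70 ± 0.539), Chordc1 (1.66 ± 0.459), Hsph1 (1.63 ± 0.597) and Hspa4l (0.454 ± 0.0775). In sWAT cold Hspa8 reached 342 ± 90.1, followed by Hspb1 (81.7 ± 63.4) and Hsp90aa1 (81.4 ± 28.7), which overlap. Dnajb1 (10.7 ± 3.56), Hsph1 (8.25 ± 3.28), Chordc1 (5.59 ± 1.06), Hspa4l (4.27 ± 1.90), Hsf1 (3.28 ± 0.417) and the Hspa1 pair (3.01 ± 2.38) followed, and each of these 6 overlapped its neighbour in the order.

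At thermoneutrality, 7 of the 10 genes were higher in BAT than in sWAT and Hsf1 was lower, with 58.7% of genes called (29.9% higher and 28.8% lower) and 32.3% and 33.6% without overlap on the higher and lower side. The differences were 2.81 ± 0.44 for Hsp90aa1 (adjusted p = 0.000157; 2.03 with a GC offset), 2.39 ± 0.38 for Hspa4l (adjusted p = 0.000171; 0.89 with adjusted p = 0.0484 with a GC offset), 1.78 ± 0.39 for Chordc1 (adjusted p = 0.00165; −0.29 with a GC offset) and 1.52 ± 0.34 for Hspa8 (adjusted p = 0.0021). Hsf1 was 0.98 ± 0.25 lower on the log2 scale, that is −0.98 (adjusted p = 0.00412, and 0.0765 with a GC offset, in a range of 9.39e-05 to 0.101). Hspb1 was higher in all 3 BAT libraries, 40.9 CPM or more against 38.7 CPM or less, with 1.44 ± 0.74 (adjusted p = 0.108; 0.0353 without sWAT cold library 1 and 0.00104 with a GC offset).

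In cold, edgeR called 0 of the 10 genes between BAT and sWAT, while it called 12.3% of all genes (1.19% higher in BAT and 11.1% lower). At an unadjusted p under 0.05 it gave 4 genes, all higher in BAT: Hspa4l (1.15 ± 0.36, adjusted p = 0.0547), Hspa8 (0.89 ± 0.34, adjusted p = 0.108), Hsph1 (1.07 ± 0.37, adjusted p = 0.0802) and Hsp90aa1 (1.18 ± 0.42, adjusted p = 0.0853). DESeq2 called these 4, while over all genes it called 721 higher in BAT, against 195 with edgeR. Both limma-voom and the replicate block called Hspa4l (1.20 in both, adjusted p = 0.0484 and 0.0254). In each of the 4 all BAT libraries were above all sWAT libraries, as for 13.4% of genes in this direction. These 2 tissue comparisons, the difference of the responses and the 2 cold comparisons share libraries and are not independent.

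The rest of the chaperone network was described with 10 further lists of 89 genes. In BAT 6.82% of all genes were called higher and 5.34% lower, and each BAT list count below stands beside those shares. A single call in so short a list is not read as a result about the list. In BAT the list of HSP90 and its cochaperones gave 4 rises of 12: Hsp90ab1, Fkbp4, a prolyl isomerase of steroid receptor complexes (1.05 ± 0.28, adjusted p = 0.0441), Ahsa1, the activator of the HSP90 ATPase (1.17 ± 0.31, adjusted p = 0.0448) and Stip1, which joins HSP70 to HSP90 (0.99 ± 0.27, adjusted p = 0.0461). The list median was 0.03 beside −0.04 over all genes, and with upper quartile scaling 0 of the 12 passed. Leaving out BAT cold library 1 or 2 or thermoneutral library 1 or 2 ended each of these 4 calls (adjusted p 0.0967 to 0.192). Hspa4, the HSP110 paralog of Hspa4l, rose by 1.23 ± 0.33 (adjusted p = 0.0462), 1 of 6 in its list (median 0.14); this call was lost with upper quartile scaling (adjusted p = 0.0678), with a filter of 1 CPM (0.0565) and without any single one of the BAT cold libraries or of thermoneutral libraries 1 and 2 (0.0726 to 0.153).

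Among the 8 subunits of the chaperonin TRiC, which folds actin and tubulin, Cct3 rose by 1.01 ± 0.24 (adjusted p = 0.0285, median 0.17). Of 11 chaperones of the endoplasmic reticulum, Calr rose by 1.25 ± 0.26 (adjusted p = 0.0192, median 0.15). Of 6 mitochondrial chaperones, Dnaja3 rose by 1.77 ± 0.31 (adjusted p = 0.0106, median 0.96; 4 at an unadjusted p under 0.05). Without BAT cold library 1 or 2 or thermoneutral library 1 or 2, Cct3 (0.0746 to 0.118) and Calr (0.0751 to 0.107) no longer passed, and Dnaja3 was at the threshold (0.05) without BAT cold library 2. With edgeR 0 of 8 other J proteins passed (median −0.39; 2 at an unadjusted p under 0.05, Dnaja4 at 0.73 and Dnaja2 at 0.76). DESeq2 called 1 of them, as did the replicate block (Dnaja4, 0.73, adjusted p = 0.0459). Likewise 0 of 6 other small heat shock proteins passed (median 0.41; 2 at an unadjusted p under 0.05). DESeq2 called 2 and so did the replicate block, Hspb7 (1.31, adjusted p = 0.0371) and Hspb8 (1.15, adjusted p = 0.0444). Among 8 exchange factors and cochaperones of HSP70 edgeR and DESeq2 called 0, with 0 at an unadjusted p under 0.05 (median 0.20), and the same held for the 6 tested heat shock factors and regulators of Hsf1 (median 0.06).

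Immediate early genes, transcribed within minutes of a stimulus or of handling, were also lower in BAT cold. Of 17, 9 fell and 0 rose, with a median of −1.69, where 5.34% of all genes were called lower and 6.82% higher. Nr4a3 fell by 2.54 ± 0.31 (adjusted p = 0.00314), Fosb fell by 3.10 ± 0.46 (adjusted p = 0.00634), Egr2 fell by 2.77 ± 0.42 (adjusted p = 0.00716) and Nr4a1 fell by 2.45 ± 0.37 (adjusted p = 0.0072). Fosb and Egr2 were low throughout, with means of 3.37 and 2.77 CPM at thermoneutrality and 0.380 and 0.387 CPM in cold. In BAT the Hspa1 sum was 427, 272 and 81.8 CPM at thermoneutrality and 13.2, 20.5 and 1.82 CPM in cold. The summed level of the 17 genes was 841, 843 and 814 CPM at thermoneutrality and 386, 447 and 291 CPM in cold. A sum can hide the spread of single genes: Nr4a1 had 181, 312 and 203 CPM at thermoneutrality and 31.4, 59.2 and 32.1 CPM in cold. In sWAT it was 420.0 to 560.0 CPM and 201 to 360.0 CPM, with 1 rise and 4 falls of 17, where 25.1% of all genes were called higher and 24.1% lower. The part of tissue handling in the Hspa1 result was not tested.

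In sWAT more of the lists moved, but 49.2% of all genes were called there (25.1% higher and 24.1% lower), and each list count below stands beside that share. Of 8 other J proteins 5 rose (median 1.62), led by Dnajc7 (1.99 ± 0.26, adjusted p = 0.000717), Dnajb4 (2.80 ± 0.42, adjusted p = 0.00113), Dnaja1 (1.82 ± 0.34, adjusted p = 0.00302) and Dnaja2 (1.41 ± 0.31, adjusted p = 0.0065). Of 6 other small heat shock proteins 4 rose (median 1.57), with Hspb6 at 3.66 ± 0.53 (adjusted p = 0.00103), Hspb7 at 4.53 ± 0.94 (adjusted p = 0.00461), Cryab at 1.44 ± 0.40 (adjusted p = 0.0164) and Hspb8 at 1.02 ± 0.32 (adjusted p = 0.0269). Without sWAT thermoneutral library 3 Cryab (0.0518) and Hspb8 (0.0733) did not pass, and with a GC offset Dnaja1 (0.228) and Dnaja2 (0.343) did not. Hspb6, Hspb7, Cryab and Hspb8 are known for their high expression in muscle. The 12 skeletal muscle markers summed to 128 to 5780 CPM in sWAT at thermoneutrality and 9210 to 24400 CPM in cold, where 8 of 12 rose; the part of muscle in this list was not tested.

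Of 6 mitochondrial chaperones 5 rose in sWAT (median 2.02), with Hspa9 at 3.47 ± 0.33 (adjusted p = 0.000264), Hspd1 at 3.15 ± 0.34 (adjusted p = 0.000378), Dnaja3 at 2.58 ± 0.38 (adjusted p = 0.00107) and Hspe1 at 1.46 ± 0.40 (adjusted p = 0.0165). Of 11 endoplasmic reticulum chaperones 5 rose and 1 fell (median 0.54): Canx rose by 2.80 ± 0.29 (adjusted p = 0.000349) and Sdf2l1 fell by 2.49 ± 0.39 (adjusted p = 0.00141), while Calr (1.16 ± 0.33) and Dnajb9 (0.99 ± 0.31) passed on the higher side. With a GC offset the counts of that list were 2 and 2, and those of the 8 other J proteins 4 and 0. Hspe1, Calr and Dnajb9 were not called without sWAT cold library 3 (0.0573, 0.0517 and 0.0756) or thermoneutral library 3 (0.0567, 0.0623 and 0.0851).

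Among HSP90 and its cochaperones 3 rose and 2 fell in sWAT (median 0.44): Stip1 rose by 2.20 ± 0.41 (adjusted p = 0.00294) and Sugt1 by 1.06 ± 0.25 (adjusted p = 0.00835), and Fkbp5 fell by 1.33 ± 0.30 (adjusted p = 0.00685) and Unc45a fell by 0.90 ± 0.25 (adjusted p = 0.0176). Bag3, an HSP70 exchange factor induced with the heat shock genes, rose by 1.67 ± 0.30 (adjusted p = 0.00254), and Stub1, a ubiquitin ligase bound to HSP70, fell by 0.84 ± 0.30 (adjusted p = 0.0443), 1 and 1 of 8 in their list (median 0.30). TRiC gave 3 rises and 1 fall of 8 (median 0.14), near the share over all genes, with Tcp1 at 1.04 ± 0.26, Cct3 at 1.00 ± 0.30, Cct8 at 0.73 ± 0.24 and Cct4 at −1.57 ± 0.34. Without sWAT cold library 3, Unc45a (0.0692), Stub1 (0.0842), Tcp1 (0.0509), Cct3 (0.0741) and Cct8 (0.138) did not pass. Hspa13 rose by 1.48 ± 0.46 (adjusted p = 0.0265), 1 of 6 in its list (median 0.09). With a GC offset Hspa13 was at 0.13, TRiC gave 0 rises and 2 falls, the HSP90 list 3 rises and 4 falls and the immediate early genes 4 rises and 2 falls. Of the 6 tested heat shock factors and regulators edgeR, DESeq2 and limma-voom called 0 (1 at an unadjusted p under 0.05; median 0.16), with Hsf2 at 0.76 ± 0.33 (adjusted p = 0.0864). Among the immediate early genes Nr4a2 rose by 2.79 ± 0.33, and Junb fell by 2.76 ± 0.53, Ier2 fell by 1.39 ± 0.28 and Jund fell by 2.25 ± 0.61. With a GC offset Ier2 (−0.27, adjusted p = 0.262) and Jund (−0.80, adjusted p = 0.123) did not pass, Junb was at −1.57 (adjusted p = 0.0132), and without sWAT thermoneutral library 1 Jund did not pass (0.0546).

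**Figure D5:**
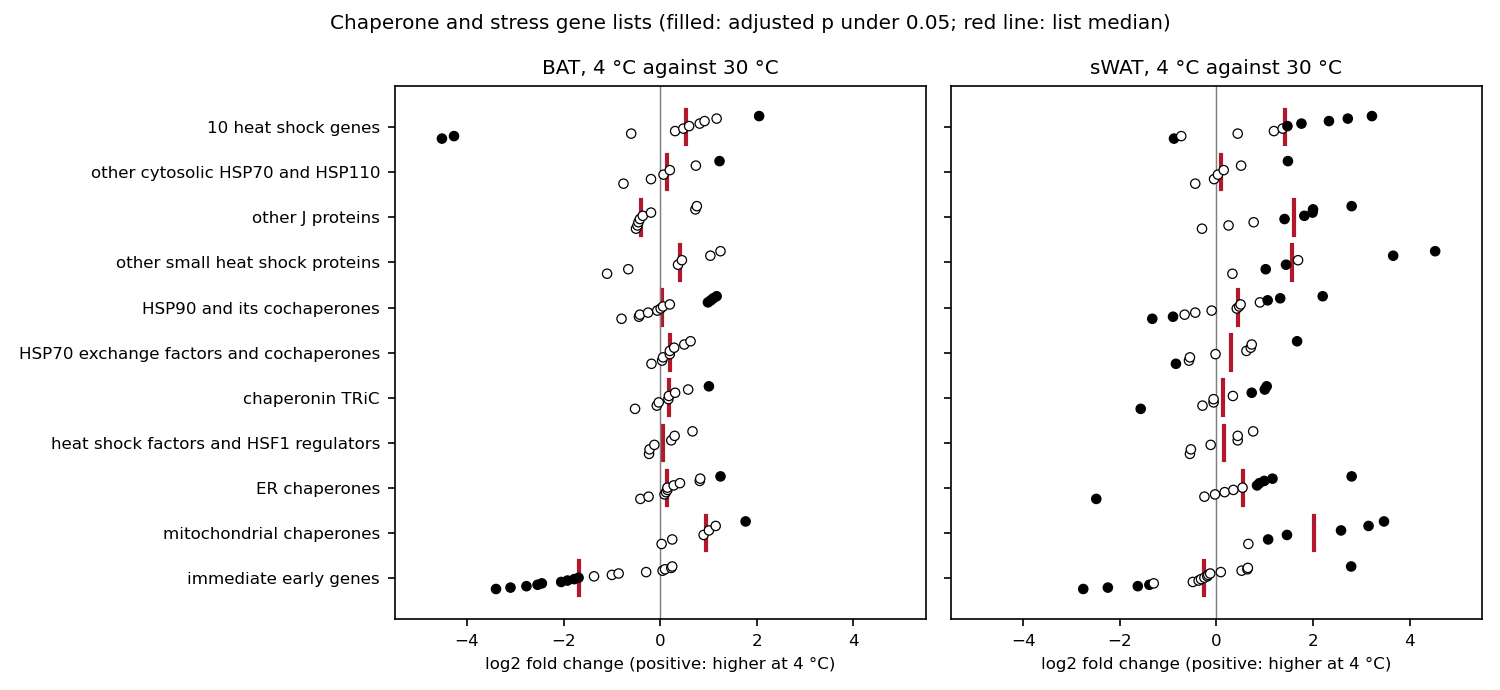
Log2 fold change of cold against thermoneutral for every tested gene of the 10 heat shock genes and of 10 further lists, in BAT (left) and sWAT (right); filled points passed adjusted p 0.05 and red lines are list medians. In BAT the Hspa1 pair and 9 of 17 immediate early genes form the filled points on the lower side, and in sWAT the mitochondrial chaperones have the highest median, 2.02.

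Markers of other cells were counted beside these results. Over all genes, 6.82% were called higher and 5.34% lower in BAT, and 25.1% higher and 24.1% lower in sWAT. The 8 brown adipocyte markers summed to 6030 to 6620 CPM in BAT at thermoneutrality and 25900 to 29300 CPM in cold, and to 253 to 1110 CPM and 4600 to 17400 CPM in sWAT; 4 of 8 rose in BAT and 6 of 7 tested rose in sWAT. Ucp1, the heat-releasing uncoupling protein, rose by 3.56 ± 0.38 in BAT (adjusted p = 0.0019) and by 5.72 ± 0.98 in sWAT (adjusted p = 0.00203). Muscle markers in BAT summed to 4150 to 13100 CPM at thermoneutrality and 4760 to 7580 CPM in cold, with 2 of 12 lower (Pvalb fell by 2.20 ± 0.46 and Mylpf fell by 1.66 ± 0.43, which did not pass with the replicate block, −1.55 at adjusted p = 0.0649). BAT thermoneutral library 1, the highest for the Hspa1 pair, was the lowest of its group for muscle markers (4150 CPM).

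Lymphocyte markers summed to 7.15 to 9.86 CPM in BAT at thermoneutrality and 3.67 to 5.88 CPM in cold, without overlap (1 of 11 tested lower, Cd3g, which fell by 1.97 with adjusted p = 0.0226), and to 790.0 to 1090 CPM in sWAT at thermoneutrality and 206 to 641 CPM in cold (6 of 12 lower). Macrophage markers gave 0 calls of 8 in BAT with edgeR (1 with DESeq2 and 1 at an unadjusted p under 0.05) and 1 rise and 4 falls in sWAT. Fibroblast markers gave 0 of 6 in BAT with edgeR and DESeq2 (0 at an unadjusted p under 0.05) and 2 falls of 6 in sWAT. Endothelial markers gave 0 of 6 in BAT with edgeR (1 with DESeq2, 3 at an unadjusted p under 0.05) and 4 rises of 6 in sWAT, and adipocyte markers 0 of 8 with edgeR (4 with DESeq2, 5 at an unadjusted p under 0.05) and 3 rises of 8. In sWAT 25.1% of all genes were called higher and 24.1% lower, and the fibroblast and adipocyte counts are not far from those shares. No marker gene was at 0 counts throughout a group. The part of these cells in the results on the 10 genes was not tested.

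Genes were ranked by how close their centred log2 profile lay to that of the summed Hspa1 pair, as the root-mean-square difference; the profile of the pair itself had a root mean square of 2.60 over the 6 BAT libraries. Among 8549 genes the nearest were Lctl (0.999), Impdh1 (1.13), Klf2 (1.13), Grik5 (1.22) and Aqp1 (1.28). Lctl, a member of the klotho family, had 186, 159 and 91.8 CPM at thermoneutrality and 6.18, 4.85 and 4.50 CPM in cold. Klf2, an early-responding zinc finger factor of endothelium, had 134, 73.3 and 56.3 CPM and then 27.2, 24.3 and 3.60 CPM. In each of the nearest genes named, library 3 was lowest at both temperatures, as for the pair. The ranking picks genes by this profile, so the shared order follows from the choice and adds no support.

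Over the 12 libraries, among 8705 genes, the nearest were Impdh1 (1.35), Ntrk3 (1.43), Nr4a1 (1.43), Apold1 (1.45) and Bcl6b (1.46), against 2.47 for the pair. Impdh1, which makes guanine nucleotides, had group means of 511 CPM in BAT at thermoneutrality, 67.3 in BAT cold, 95.0 in sWAT at thermoneutrality and 48.2 in sWAT cold. Of the other 8 heat shock genes the nearest over the BAT libraries was Dnajb1, at rank 730 with 2.20, and the farthest was Hspa4l, at rank 8446 with 3.57. Over the 12 libraries Hspb1 was at rank 302 with 2.09, Dnajb1 at rank 364 with 2.11 and Hsph1 at rank 472 with 2.14, and Hspa4l was again the farthest, at rank 7607 with 2.80.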

How the data were processed

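The authors deposited 1 table of raw read counts per gene symbol, whole numbers without normalization, for 12 libraries; 0 columns lacked a sample. Per the submitters' processing notes STAR, DESeq2 and the mm10 build were used; no version is named, and the sources used here do not give the counting tool, strand setting or annotation, so reads of overlapping and near-identical genes are uncertain. Libraries were made from 1000 ng of total RNA with Illumina TruSeq and read as pairs of 100 nt, per the labels. The column names call 2 libraries merged (BAT cold 1, sWAT cold 2), and both were used as they stand.

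The tests ran in edgeR 4.0.16 under R 4.3.3, with limma 3.58.1: filterByExpr, TMM factors, glmQLFit with robust=TRUE and glmQLFTest, Benjamini-Hochberg over all genes tested, threshold 0.05, no minimum fold. Cold and thermoneutral libraries were compared within each tissue, and a fit of 4 group means over 12 libraries gave the difference of responses and the tissue comparisons. The standard error is the log2 fold change divided by the square root of F. CPM divide by the effective library size, total times TMM factor, from the 12-library fit. The script was tested on simulated data. Positions, exon lengths and GC content came from GENCODE M21 on GRCm38, the same build as mm10, with a GC value for 96.0% of genes; promoter windows are RefSeq's. No 2 libraries of a group looked like 1 library read again (chi-square per degree of freedom of 43 or more). This check cannot tell whether libraries come from the same animals or pool. BAT libraries 1 and 2 were closer to each other (72.5 at thermoneutrality and 43 in cold) than either was to library 3 of its group (754 to 1100).

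The labels give each library an experiment number that recurs in every group, without saying what it marks. In BAT, libraries with the same number deviated together from their group means (r = 0.502, 0.107 and 0.423 across 8672 genes). Cold 1 with thermoneutral 2 (0.386) and cold 2 with thermoneutral 1 (0.211) did so too. Library 3 of either temperature against 1 or 2 of the other gave −0.569 to −0.21. In sWAT the same numbers gave −0.263, 0.149 and −0.325, and between BAT and sWAT in cold −0.658, 0.739 and −0.371. These values do not settle whether the number pairs libraries, and it entered only the alternatives, as a block.

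The members, lists, named genes and alternatives were chosen with earlier results of these data known. Named genes are the 10 members and, from each list, at most 4 called genes ordered by adjusted p (at most 2 in a list without calls); the likeness ranking takes 5 genes whose mean log2 CPM is 3 or more (pseudocount 0.5) that are not predicted gene models. Alternatives were RLE and upper quartile scaling, dropping the filter, requiring 1 CPM in 3 libraries instead, DESeq2 1.42.0, limma-voom, the replicate block, a GC offset (lowess span 0.4), both together, leaving out each library, leaving out both BAT libraries numbered 3, and 1 fit over all libraries.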

Additional observations from a re-analysis of the deposited data

Results flagged for a closer look

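The response to cold differed between sWAT and BAT by the interaction term of the 12-library edgeR fit (sWAT minus BAT, log2 scale) for the following genes. Among the 10 heat shock genes these were Hspa1a (5.53 ± 1.23, adjusted p = 0.0071), Hspa1b (5.03 ± 1.32, adjusted p = 0.0157), their sum (5.27 ± 1.28, adjusted p = 0.011), Hsph1 (2.10 ± 0.53, adjusted p = 0.0128) and Hsf1 (−1.30 ± 0.35, adjusted p = 0.017). For comparison, 25.1% of all genes differed at this threshold.

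Among the further lists the difference passed for the J proteins Dnajc7 (2.41 ± 0.35, adjusted p = 0.000873), Dnajb4 (3.26 ± 0.61, adjusted p = 0.00315) and Dnaja1 (2.07 ± 0.46, adjusted p = 0.00714). It passed for the small heat shock proteins Hspb6 (3.34 ± 0.85, adjusted p = 0.0133) and Hspb7 (3.35 ± 1.04, adjusted p = 0.0316), for Bag3 (1.44 ± 0.44, adjusted p = 0.0296) and for Tcp1 (1.12 ± 0.35, adjusted p = 0.0313). Endoplasmic reticulum chaperones gave Canx (2.04 ± 0.38, adjusted p = 0.00312) and Sdf2l1 (−3.24 ± 0.77, adjusted p = 0.00984), and mitochondrial chaperones gave Hspa9 (2.38 ± 0.45, adjusted p = 0.00326) and Hspd1 (2.19 ± 0.50, adjusted p = 0.00791). Immediate early genes gave Nr4a1 (3.16 ± 0.51, adjusted p = 0.00158), Nr4a3 (2.47 ± 0.45, adjusted p = 0.00269), Nr4a2 (2.63 ± 0.55, adjusted p = 0.00545) and Fosb (2.90 ± 0.62, adjusted p = 0.00612). Of 21 alternatives, the call was kept under 11 for Hspb7 (adjusted p up to 0.0921; 0.0661 with the replicate block), 13 for Bag3 (up to 0.116), 7 for Tcp1 (up to 0.579), 19 for Dnaja1 and Canx (0.65 with adjusted p = 0.337 and 0.79 with adjusted p = 0.102 with a GC offset) and 20 for Hspd1 (up to 0.0503). Among the heat shock genes the losses were those of Hspa1b without a filter (0.059), Hsph1 without BAT cold library 1 (0.0502) and Hsf1 with a GC offset (0.0535, and 0.0758 with the replicate block added) or without sWAT cold library 3 (0.0509). The sWAT thermoneutral libraries, which stand apart in composition, enter every one of these differences.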

How the results depend on the processing

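Of the values of the 10 genes and the Hspa1 sum over the alternatives other than single left-out libraries, 466 kept direction and call, 38 gained a call, 10 lost one and 14 changed sign; over left-out libraries the numbers were 485, 19, 14 and 10. The cause was not tested.

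In BAT, 1777 genes passed, and 2806 with DESeq2, 3093 with a GC offset, 2799 with the replicate block (pairing the same-numbered libraries), 3497 with block and GC offset, 6509 without both libraries numbered 3, and 451 to 2483 with 1 library left out. Of the 10 genes 3 passed, against 5 with DESeq2, 6 with either GC fit, 8 without both libraries numbered 3 and 1 to 3 with 1 library left out. Leaving out both libraries numbered 3 gave −0.08 for Hsph1 and −0.19 for Chordc1. The Hspa1 sum lay between −5.07 and −3.87 with 1 library left out, and Bag3 between −0.05 (without BAT cold library 2) and 0.51. In BAT the block changed no call of the 10 genes.

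In sWAT, Hspa1b turned to −0.32 with limma-voom and −0.09 with the block, and lay between −0.13 and 0.98 with 1 library left out. The sum lay between 0.27 and 1.35. A GC offset, without and with the block, turned Chordc1 (−0.28 and −0.30), Sugt1 (−0.10 and −0.15), Unc45a (0.04 and 0.05), Stub1 (0.27 and 0.26), Tcp1 (−0.16 and −0.19), Cct8 (−0.13 and −0.16), Hsf2 (−1.22 and −1.23) and Dnajb9 (−0.36 and −0.31). In the difference of responses it turned Hspa4l (−0.32 and −0.45), Dnajb1 (0.25 and 0.27), Chordc1 (−0.98 and −0.98) and Tcp1 (−0.33 and −0.32), and at thermoneutrality Chordc1 (−0.29 and −0.28).

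With 1 library left out, the difference of responses gave 2419 to 5498 genes (4108 with all) and 3 to 7 of the 10 genes (4 with all); Dnajb1 lay between −0.45 and 0.24 and Hspb1 between −0.17 and 0.99. Between the tissues in cold, 1100 to 2239 genes passed (2015 with all) and 0 to 3 of the 10 (0 with all); Hspa1a lay between −0.06 and 1.09, Hspa1b between −0.01 and 1.27 and the sum between −0.03 and 1.16. Of the 10 genes, 1 passed there with RLE scaling, no filter, limma-voom or the block, 4 with DESeq2, 5 with a GC offset and 3 with block and GC offset. Over all genes, calls higher in BAT also went from 195 to 721 with DESeq2, 848 with a GC offset and 741 with block and GC offset. With RLE scaling, no filter, limma-voom and the block they were 298, 134, 256 and 211. The Hspa1 pair rested on as few as 53 counts in a library, and 3 libraries a group limit the precision of every value.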

Other observations

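Within the Hspa1 pair, Hspa1a took 47.6%, 47.7% and 52.5% of the counts in BAT at thermoneutrality and 52.9%, 51.5% and 63.0% in BAT cold. In sWAT it took 45.9%, 36.0% and 46.0% at thermoneutrality and 56.6%, 55.6% and 54.4% in cold. The sWAT groups did not overlap in this share, and the lowest library in BAT cold was below the highest at thermoneutrality. The split rests on how reads shared by the copies were assigned, which is not given in the sources used here.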
